A study of Mus musculus with 16 samples.

Results

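The CD300 family was followed in mouse dendritic cells grown from bone marrow and treated for 24 h with a fatty acid, a TLR7 agonist or both. Its members were taken as the genes whose platform symbol begins with Cd300, which gave 9 of the 22180 genes measured. They were Cd300a, Cd300lf, Cd300lb, Cd300ld, Cd300c2, Cd300ld3, Cd300e, Cd300c and Cd300lg. Where a gene had several probe sets, the brightest one on average over the 16 arrays would have been used, but each of the 9 had 1 probe set listed under its symbol alone, so no measured value decided which probe set stood for a member. Members were thus chosen by symbol alone, and the family was picked for description with earlier results of these arrays known. A further 2 probe sets were listed under several symbols with a Cd300 symbol among them (4 symbols over both) and were left out.

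The cells came from male C57/B6 mice and were cultured for 10 days with GM-CSF (20 ng/ml), and these conditions were shared by all groups. There were 4 groups of 4 arrays. The first was mock-treated, the second received PA (0.5 mM on albumin, in a molar ratio of 6 to 1), the third received IMQ and the last received both (IMQ with PA). PA stands for palmitic acid, a saturated fatty acid. IMQ stands for imiquimod, which activates TLR7. The labels disagree on the unit of the IMQ dose (3 uM or 3 ug/ml), and the labels do not say whether mock cells received albumin. The replicates are called biological without a named animal or culture, so p-values reflect the spread among these arrays alone, which may be technical.

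CD300 proteins are cell surface receptors of myeloid cells with a single immunoglobulin-like domain, and several bind lipids such as phosphatidylserine, ceramide or other phospholipids exposed on dying cells. They come as paired receptors. Inhibitory members carry tyrosine motifs (ITIMs) in their cytoplasmic tail that recruit the phosphatases SHP-1 and SHP-2, encoded by Ptpn6 and Ptpn11. Activating members have short tails and signal through adaptors with an activating motif (ITAM), chiefly DAP12 (Tyrobp) and the Fc receptor gamma chain (Fcer1g), which engage the kinase Syk. Cd300a and Cd300lf were counted here as inhibitory, and Cd300lb, Cd300ld, Cd300c2, Cd300ld3, Cd300e and Cd300c as activating. Cd300lg encodes a mucin-like member known from endothelium, where it acts in adhesion, and was counted in neither class.

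In RefSeq (GRCm38.p6) 11 Cd300 genes lie side by side on 1 chromosome with Rab37 as the other measured gene among them. Cd300lf lies within the span of Rab37. Cd300lg lies on the same chromosome, apart from the cluster, with 146 protein-coding genes in between. Cd300ld3 has near copies in Cd300ld4 and Cd300ld5, and its probe set may take up their signal. The promoters of Cd300ld4 and Cd300ld5 were identical over the 300 bases compared, and that of Cd300ld3 matched them at 285 of 300 aligned bases, against 65.9% identity between Cd300ld3 and Cd300ld. Pairs without 2 of these 4 genes lay between 47.4% and 54.1%.

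The promoters of 5 members are printed below because these genes gave the different responses described further on. They run from 250 bases before to 50 bases after the RefSeq start, 5′ to 3′ along the gene, and capitals mark AGGAAGT, the core of sites bound by PU.1, a lineage factor of myeloid cells, and by other ETS factors. Cd300a (chr11:114889791-114890090, plus strand) and Cd300lb (chr11:114934322-114934621, minus strand) were the members that PA raised most in IMQ-treated cells. Cd300ld (chr11:114989837-114990136, minus strand) was raised less, Cd300e (chr11:115061990-115062289, minus strand) was the member that IMQ raised, and Cd300lf (chr11:115133943-115134242, minus strand) was an inhibitory member that PA did not raise.
Cd300a: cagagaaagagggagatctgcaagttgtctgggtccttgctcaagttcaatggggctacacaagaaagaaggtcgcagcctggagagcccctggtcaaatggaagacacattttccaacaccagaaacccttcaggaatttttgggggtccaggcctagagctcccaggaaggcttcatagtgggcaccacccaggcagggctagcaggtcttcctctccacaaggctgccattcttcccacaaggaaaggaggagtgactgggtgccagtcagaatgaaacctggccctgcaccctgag
Cd300lb: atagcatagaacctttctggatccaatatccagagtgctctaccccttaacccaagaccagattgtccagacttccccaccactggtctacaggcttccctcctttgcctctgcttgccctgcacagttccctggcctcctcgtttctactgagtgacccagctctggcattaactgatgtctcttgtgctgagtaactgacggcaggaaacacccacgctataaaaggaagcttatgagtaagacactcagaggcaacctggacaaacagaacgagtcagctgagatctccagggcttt
Cd300ld: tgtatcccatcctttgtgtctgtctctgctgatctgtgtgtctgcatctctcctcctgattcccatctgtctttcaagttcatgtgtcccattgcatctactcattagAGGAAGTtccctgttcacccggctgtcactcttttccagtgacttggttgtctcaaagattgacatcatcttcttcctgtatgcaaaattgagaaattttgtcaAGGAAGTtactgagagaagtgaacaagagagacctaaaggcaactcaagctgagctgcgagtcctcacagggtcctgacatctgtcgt
Cd300e: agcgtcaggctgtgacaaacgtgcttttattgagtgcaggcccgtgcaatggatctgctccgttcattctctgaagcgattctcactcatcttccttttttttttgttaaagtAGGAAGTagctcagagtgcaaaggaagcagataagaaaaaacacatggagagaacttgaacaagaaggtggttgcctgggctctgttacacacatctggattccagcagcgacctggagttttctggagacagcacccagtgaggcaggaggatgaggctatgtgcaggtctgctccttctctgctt
Cd300lf: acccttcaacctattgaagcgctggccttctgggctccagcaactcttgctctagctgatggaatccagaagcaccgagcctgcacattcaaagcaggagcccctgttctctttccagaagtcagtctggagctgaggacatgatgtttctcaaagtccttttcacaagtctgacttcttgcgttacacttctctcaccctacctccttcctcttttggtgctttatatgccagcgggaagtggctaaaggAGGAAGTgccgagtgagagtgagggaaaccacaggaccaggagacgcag

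Both strands of these windows were searched for 8 motifs, which were chosen after the sequences had been seen. AGGAAGT was present in 7 of 10 Cd300 promoters with a sequence in the table and in 9.35% of all 32851 promoters of that length. The 7 were Cd300ld, Cd300c2, Cd300e, Cd300lf and the near-identical Cd300ld3, Cd300ld4 and Cd300ld5, so they are not 7 separate cases. The first base of the match lay at -142 and -38 in Cd300ld, at -137 in Cd300e and at 2 in Cd300lf, counted from the start. The longer form GAGGAAGT, which contains it, was in 5 of 10 against 3.20% of all promoters. The interferon-type motif (GAAA, any 2 bases, GAAA) was in 2 of 10 (Cd300c and Cd300c2) against 3.44%, and the NF-kB-type motif (GGG, any 2 bases, TTTCC) in 2 of 10 (Cd300lb and Cd300c2) against 1.63%. The C/EBP-type motif TTGCNNAA was in 1 of 10 (Cd300a) against 10.8%. The AP-1 motif TGANTCA (7.81% of all), the CRE TGACGTCA (1.79%) and the PPAR-type repeat of AGGTCA with a spacer of 1 base (0.0396%) were in 0 of 10 windows. A match describes letters in the window and is not evidence of binding.

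All values are log2 RMA values, in which 1 unit is a factor of 2. Calls rest on limma with Benjamini-Hochberg adjustment over the 22180 genes and a threshold of 0.05, and changes are differences of group means, followed after ± by their standard error in limma. A group mean under 4.93 was treated as dim. Of 1447 genes for smell and taste receptors, 95% had a mean under that level. Levels of different probe sets are not compared with each other. Across genes, arrays of 1 group correlated at 0.994 to 0.996, and 0 pairs of arrays were identical. All 12 measured dendritic cell markers, all 10 macrophage markers and all 6 monocyte markers exceeded the dim level in at least 1 group. Of the markers of other cells, 5 of 12 for neutrophils (among them Ly6g, Camp and Mpo), 8 of 9 for mast cells and 7 of 8 for lymphocytes were dim in all groups. In 5 of the 8 arrays without IMQ the cytokine Il6 lay above 6 (mock replicates 1 to 3 at 7.57, 7.90 and 7.71 and PA replicates 3 and 4 at 7.43 and 8.22), while the other 3 read at most 4.32 and the arrays with IMQ 11.9 to 12.3. Where a call printed here for a named gene was lost or gained without those 5 arrays, both results are given. Counts over gene lists are given with all arrays.

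Imiquimod alone lowered most of the family and raised Cd300e. Of the 9 members 7 fell, 1 rose and 1 was not called, where 34.8% of all genes were called (17.0% higher and 17.9% lower). The median log2 change of the members was -1.84, against 0.01 over all genes. Among inhibitory members 2 of 2 fell, among activating members 4 of 6 fell and 1 rose, and Cd300lg fell. In whole cultures, fewer cells of a type and less RNA per cell cannot be told apart.

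Cd300lb, an activating receptor that pairs with DAP12, fell most. Its mock arrays read 9.17, 9.12, 9.24 and 9.40, and its IMQ arrays 5.75, 5.34, 5.60 and 5.59. The 2 groups were more than 3 log2 units apart at their closest arrays. The change was -3.66 ± 0.08 (limma adjusted p = 2.52e-14), a 12.7-fold fall that left 7.90% of the mock level.

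Of the inhibitory members, Cd300a, which binds phosphatidylserine and phosphatidylethanolamine, read 7.54, 7.61, 7.62 and 7.73 in mock and 5.64, 5.69, 5.41 and 5.52 with IMQ. The groups did not overlap, and the change was -2.06 ± 0.08 (adjusted p = 3.36e-12 in limma). Cd300lf, which binds ceramide and phosphatidylserine, read 8.48, 8.50, 8.56 and 8.52 in mock and 6.64, 6.70, 6.73 and 6.44 with IMQ. It changed by -1.89 ± 0.07 (adjusted p = 1.60e-12 in limma), again without overlap. The level left with IMQ was 24.0% of mock for Cd300a and 27.0% for Cd300lf.

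Among the other activating members, Cd300c2, which pairs with DAP12 and the Fc receptor gamma chain, fell from 9.43 to 9.61 across the mock arrays to 7.32 to 7.49 with IMQ (-2.10 ± 0.05, limma adjusted p = 8.85e-14). Cd300ld, which signals through the Fc receptor gamma chain, read 9.26, 9.26, 9.16 and 9.21 in mock and 7.67, 7.67, 7.47 and 7.59 with IMQ (-1.62 ± 0.05, limma adjusted p = 8.29e-13). Cd300ld3 fell less, from 7.38 to 7.63 in mock to 6.42 to 6.69 with IMQ (-0.95 ± 0.09, limma adjusted p = 3.77e-07). The groups were separate in all 3 genes. The share of all genes with separate groups was not counted in any comparison, so separations here and below have no background.

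Cd300e, an activating receptor of monocytes that pairs with DAP12, went the other way. It read 5.08, 4.97, 5.02 and 5.09 in mock, just above the dim level, and 6.47, 6.57, 6.65 and 6.60 with IMQ. The groups did not overlap, and the rise was 1.53 ± 0.08 (2.90-fold, limma adjusted p = 2.68e-10). Cd300c lay between 5.39 and 5.82 in all mock and IMQ arrays, with overlapping groups, and was not called (-0.11 ± 0.09, adjusted p = 0.39 in limma). The interval of its change ran from -0.31 to 0.08.

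Cd300lg read 6.34, 6.61, 6.86 and 6.89 in mock and 5.23, 4.57, 4.64 and 4.89 with IMQ, so its IMQ mean (4.83) was dim. The fall is therefore given as at least 3.35-fold, with a fitted change of -1.84 ± 0.18 (limma adjusted p = 4.10e-07). Of 8 endothelial markers measured, 5 were dim in all groups (Tek, Esam, Emcn, Plvap and Tie1). Of that list Vwf went from a mean of 8.17 in mock to 5.84 with IMQ, and the changes of the other markers are not given singly. The log2 of the summed level of that list was 9.76 to 9.87 in mock and 9.04 to 9.19 with IMQ, lower as Cd300lg was, and its part in the result was not tested. Such a sum adds unlogged levels, so the brightest genes of a list set most of it. The same sum for monocyte markers was 13.3 to 13.4 in mock and 13.5 to 13.7 with IMQ, for dendritic cell markers 13.6 and 13.3 to 13.4, and for macrophage markers 14.0 to 14.1 in both. Larger shifts stood in the basophil and eosinophil list, from 8.61 to 8.72 in mock to 7.51 to 7.67 with IMQ, with 3 of its 7 markers dim in all groups (Mcpt8, Prss34 and Ccr3). The plasmacytoid dendritic cell list went from 10.6 to 10.9 in mock to 11.7 to 11.8 with IMQ, with Siglech and Ccr9 dim in all groups. Neutrophil markers stood at 9.47 to 9.49 and 9.81 to 9.87. A level sum can hide changes of single genes. In the macrophage list Mrc1 changed by -3.62 and Mertk by -2.08 with IMQ, while the sum read 14.0 to 14.1 in both groups. The changes of its other markers are not given singly. The part of these lists in the changes of the family was not tested.

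**Figure D1:**
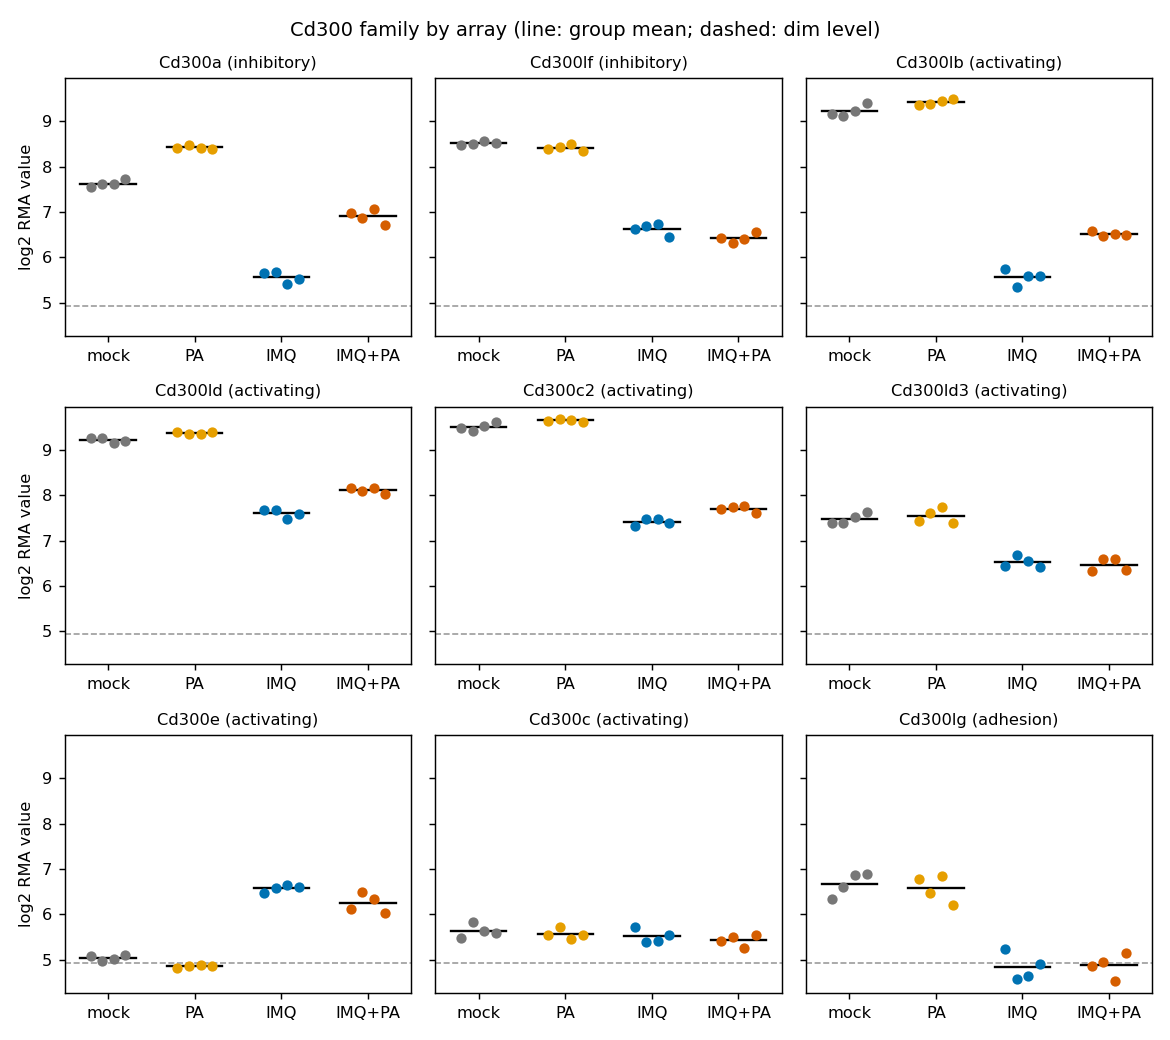
Log2 RMA value of each Cd300 member on each of the 16 arrays (points, 4 per group), with the group mean (line) and the dim level of 4.93 (dashed). Cd300e is higher in both groups with IMQ, Cd300c is flat, the other 7 are lower with IMQ, and Cd300a is higher with PA in both settings.

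Palmitic acid alone raised 1 member, the inhibitory Cd300a, where 1.49% of all genes were called (1.05% higher and 0.442% lower). Cd300a read 8.42, 8.49, 8.41 and 8.40 with PA against 7.54 to 7.73 in mock, and the lowest PA array lay above the highest mock array. The rise was 0.80 ± 0.08 (1.75-fold, limma adjusted p = 4.41e-05). Without the 5 arrays with high Il6, which left 1 mock array (7.73) and 2 PA arrays (8.42 and 8.49), the change was 0.73 ± 0.15 and the call was lost (limma adjusted p = 0.193), in a fit that called 15 genes in all.

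The other 8 members were not called with PA alone, in limma. Cd300lf, the other inhibitory member, read 8.40, 8.44, 8.50 and 8.35 with PA, overlapping the mock arrays (-0.09 ± 0.07, limma adjusted p = 0.555, interval -0.23 to 0.05). Small positive differences stood in Cd300lb (0.19 ± 0.08, limma adjusted p = 0.276), Cd300ld (0.15 ± 0.05, limma adjusted p = 0.194) and Cd300c2 (0.14 ± 0.05, limma adjusted p = 0.227). Cd300ld and Cd300c2 did so with groups that did not overlap. Cd300e had a difference of -0.18 ± 0.08 (limma adjusted p = 0.32), with groups that did not overlap and a PA mean of 4.86 in the dim range. The share of all genes whose PA and mock arrays did not overlap was not counted. These separations therefore have no background to be read against. The values for Cd300ld3 (0.06 ± 0.09), Cd300c (-0.06 ± 0.09) and Cd300lg (-0.10 ± 0.18) were within their errors.

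Adding PA to IMQ raised 4 members, lowered 2 and left 3 uncalled, where 21.1% of all genes were called (11.6% higher and 9.44% lower). The 4 that rose were all members that IMQ had lowered. Cd300a read 6.98, 6.87, 7.07 and 6.72 with both agents against 5.41 to 5.69 with IMQ alone, with no overlap. This was a rise of 1.34 ± 0.08 (2.54-fold, limma adjusted p = 2.65e-09). Cd300lb read 6.58, 6.48, 6.52 and 6.50 against 5.34 to 5.75, a rise of 0.95 ± 0.08 (1.93-fold, limma adjusted p = 1.88e-07).

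Cd300ld rose by 0.50 ± 0.05, with 8.16, 8.09, 8.16 and 8.02 in the arrays with both agents (limma adjusted p = 3.08e-06). Cd300c2 rose by 0.29 ± 0.05, with 7.69, 7.75, 7.76 and 7.60 (limma adjusted p = 0.000994). Neither gene overlapped with the arrays given IMQ alone. On the log2 scale, the change with added PA was opposite to the IMQ change and equal to 65.2% of its size in Cd300a, 31.0% in Cd300ld, 25.9% in Cd300lb, 21.0% in Cd300e and 13.7% in Cd300c2. For Cd300lf it went the same way as the IMQ change (-10.3%), and for Cd300ld3 (-5.89%) and Cd300lg (1.98%) it was not called. The share for Cd300a includes the rise that PA gave without IMQ (0.80), and among cells with PA the IMQ change was -1.52, against -2.06 without PA. Cd300lb had the lowest level relative to mock in both settings, at 7.90% with IMQ and 15.3% with IMQ and PA.

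Cd300e was lower with both agents than with IMQ alone, at 6.12, 6.50, 6.35 and 6.03 against 6.47 to 6.65. The groups overlapped in part, and the change was -0.32 ± 0.08 (limma adjusted p = 0.00944). The call was lost when the fit held these 2 groups alone (limma adjusted p = 0.0617 at the same change). Cd300lf read 6.43, 6.32, 6.42 and 6.55 against 6.44 to 6.73, overlapping, and was called lower by a small margin (-0.20 ± 0.07, limma adjusted p = 0.0442). That call was lost in 16 of 24 alternative fits, 12 of them leaving out 1 array (any single array other than PA replicates 3 and 4, IMQ replicate 4 and IMQ with PA replicate 4), with changes of -0.26 to -0.16 and adjusted p of 0.00503 to 0.133 over the alternatives. Without the arrays with high Il6 the change was the same and the limma adjusted p was 0.104. Cd300ld3 (-0.06 ± 0.09), Cd300c (-0.09 ± 0.09) and Cd300lg (0.04 ± 0.18, both means dim) were not called.

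Marker sums of other cells also moved between these groups. Monocyte markers went from 13.5 to 13.7 with IMQ to 13.1 to 13.2 with both agents, lower as Cd300e was, and neutrophil markers from 9.81 to 9.87 to 9.25 to 9.37. Dendritic cell markers went from 13.3 to 13.4 to 13.5, and basophil and eosinophil markers from 7.51 to 7.67 to 7.74 to 7.96, higher as the 4 risen members were. The macrophage sum stood at 14.0 to 14.1 in both. In that list Mrc1 went from a mean of 6.56 with IMQ to 7.62 with both agents, and Mertk rose by 0.50 ± 0.06. The changes of its other markers are not given singly. The part of these lists in the changes of the members was not tested.

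With PA added to IMQ, each class held members called higher and members called lower. In this comparison 11.6% of all genes were called higher and 9.44% lower. Of the 2 inhibitory members Cd300a rose and Cd300lf was called lower, with intervals of 1.18 to 1.51 and -0.33 to -0.06. Of the 6 activating members 3 rose (Cd300lb, Cd300ld and Cd300c2), 1 fell (Cd300e) and 2 were not called. The lower call was lost in 16 of 24 alternative fits for Cd300lf and in 1 of 24 for Cd300e. With 2 inhibitory genes no test of the classes was made.

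**Figure D2:**
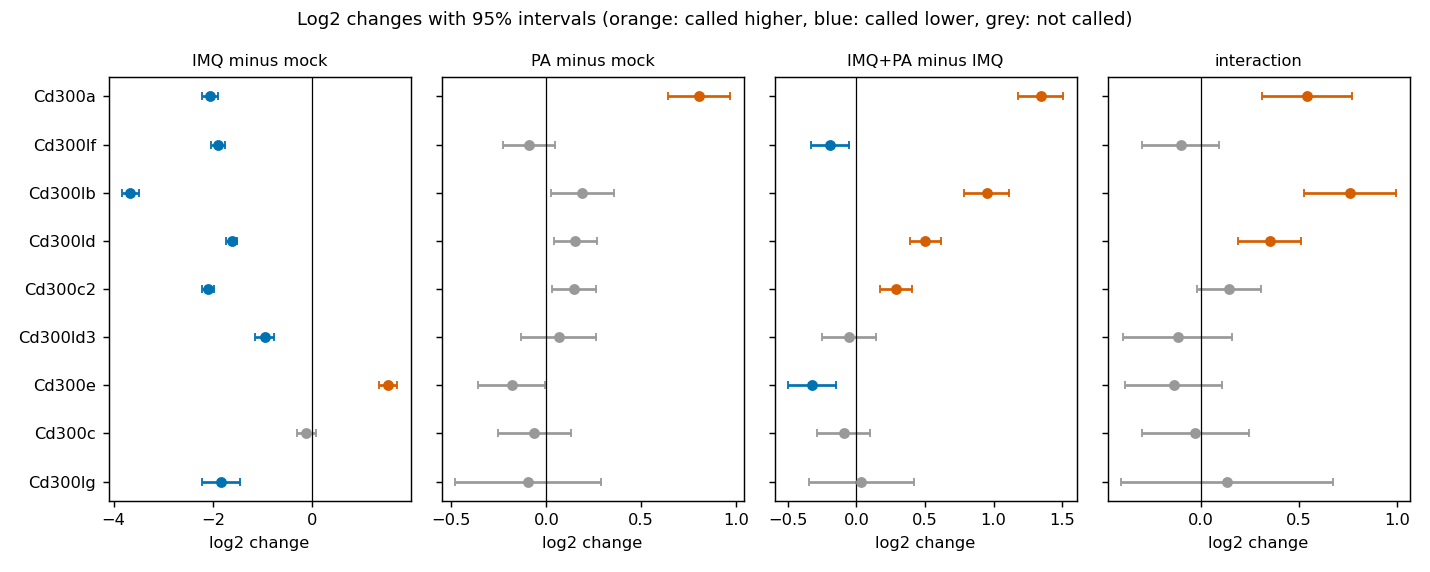
Log2 change of each member in 4 comparisons (points, with 95% intervals of the limma fit, horizontal axes differ in range). Cd300a is the member with a called rise in each of PA minus mock, IMQ and PA minus IMQ and the interaction, and Cd300lb has the lowest value for IMQ minus mock.

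The interaction asks whether the change with PA differed between cells with and without IMQ. It was called for 3 members, all higher, where 13.6% of all genes were called (6.58% higher and 7.01% lower). It was 0.76 ± 0.11 for Cd300lb (limma adjusted p = 0.000182), 0.54 ± 0.11 for Cd300a (0.00265) and 0.35 ± 0.07 for Cd300ld (0.00459). The change with PA was thus larger with IMQ present in each of these 3. Without the 5 arrays with high Il6 the value for Cd300lb was 0.98 and stayed called, while Cd300a (0.62, limma adjusted p = 0.0793) and Cd300ld (0.33, limma adjusted p = 0.175) lost their calls at values close to those of all arrays. Cd300c2 (0.14 ± 0.08), Cd300lf (-0.10 ± 0.09), Cd300e (-0.14 ± 0.12), Cd300ld3 (-0.12 ± 0.13), Cd300c (-0.03 ± 0.13) and Cd300lg (0.13 ± 0.25) were not called.

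With PA present in both groups, IMQ again lowered 7 members, raised 1 and left Cd300c uncalled (limma adjusted p = 0.272), where 35.3% of all genes were called (16.8% higher and 18.5% lower). The log2 changes were -2.90 for Cd300lb, -1.99 for Cd300lf, -1.96 for Cd300c2, -1.52 for Cd300a, -1.27 for Cd300ld and -1.08 for Cd300ld3. Cd300e rose by at least 2.49-fold, since its PA mean was dim, and Cd300lg fell by at least 3.13-fold. Against mock, where 36.5% of all genes were called (18.4% higher and 18.1% lower), the combined treatment left the same split of 7 lower, 1 higher and 1 uncalled. The level left was 60.9% of mock for Cd300a, 46.1% for Cd300ld, 28.5% for Cd300c2 and 23.6% for Cd300lf. These comparisons share arrays with those above. In its order of levels Cd300a went from PA over mock and IMQ with PA to IMQ, with no overlap between neighbours. For Cd300lf, mock and PA overlapped, as did IMQ and IMQ with PA.

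Neighbouring genes of the cluster did not show falls of this size with IMQ. Of the 3 measured genes on its Cd300a side, Btbd17 (0.20 ± 0.09) and Gpr142 (0.27 ± 0.12) were not called and Gprc5c fell by 0.27 on the log2 scale. On the other side Slc9a3r1, which encodes a scaffold protein, rose by 0.63 ± 0.05 and Tmem104 fell by 0.47, while Nat9 was not called (-0.21 ± 0.08) except without the arrays with high Il6 (-0.36 ± 0.11, limma adjusted p = 0.0459). Rab37, whose span holds Cd300lf, was dim in all groups, with means from 4.20 to 4.47, and was not called with IMQ (-0.10 ± 0.07). With PA added to IMQ, Nat9 (0.42 ± 0.08) and Tmem104 (0.28 ± 0.04) rose. Inside the cluster, Cd300a and Cd300lb stand side by side in the measured order and had the largest rises with added PA. Cd300e and Cd300lf stand at the far end and were both called lower, with overlapping groups and calls not kept in every alternative fit. The part of position was not tested.

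**Figure D3:**
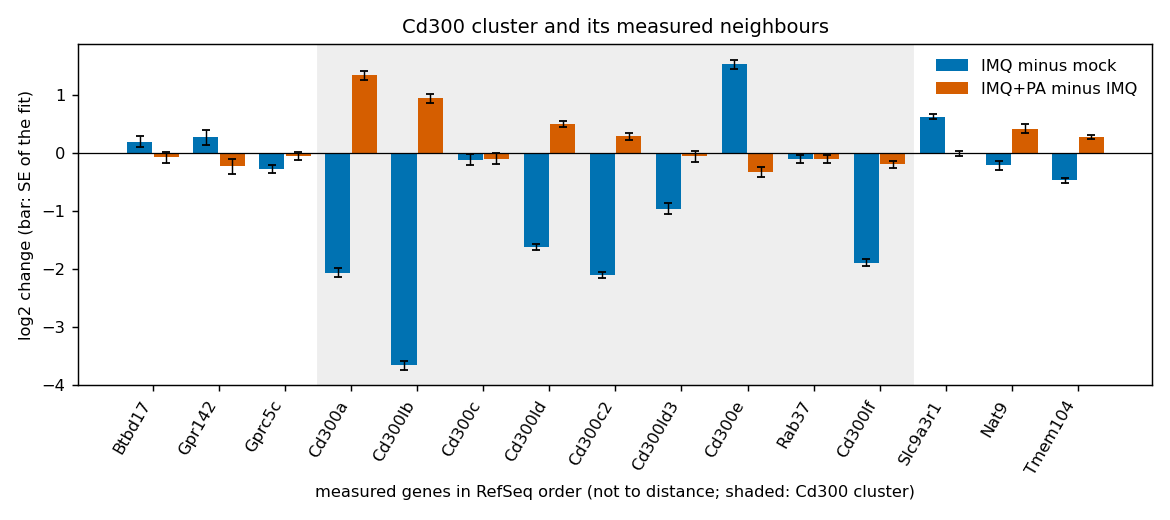
Log2 change with IMQ (blue) and with PA added to IMQ (orange), with the standard error of the fit, for the measured genes of the Cd300 cluster (shaded) and the 3 measured genes on each side, in RefSeq order and not to distance. Tall blue bars fall within the cluster and change in size and sign from gene to gene.

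The adaptors of the activating members moved in different directions with IMQ, where 34.8% of all genes were called. Tyrobp (DAP12) read 11.5, 11.5, 11.5 and 11.6 in mock and 10.8, 10.7, 10.7 and 10.7 with IMQ, a change of -0.79 ± 0.05 (limma adjusted p = 2.99e-09). Fcer1g, the Fc receptor gamma chain, read 12.6 in all mock arrays and 12.9 to 13.0 with IMQ. It rose by 0.36 ± 0.04 (limma adjusted p = 6.42e-07), and its values are near the highest on any array (13.5). Hcst, which encodes the adaptor DAP10, had a change of -0.36 ± 0.10 with overlapping groups (limma adjusted p = 0.011). Adding PA to IMQ, where 21.1% of all genes were called, lowered Tyrobp (-0.23 ± 0.05) and also Fcer1g (-0.13 ± 0.04). Hcst was not called (0.21 ± 0.10). Without the arrays with high Il6 the Fcer1g value was the same and its call was lost (limma adjusted p = 0.0556). Of these 3 adaptors 0 were called with PA alone, where 1.49% of all genes were called.

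Syk, the kinase that binds the phosphorylated adaptors, rose with IMQ (0.59 ± 0.04) and was lower with PA added (-0.13 ± 0.04). That second call was lost without the arrays with high Il6 (limma adjusted p = 0.0642). Over the list of kinases and adaptors downstream of activating members, 8 of 17 measured genes rose and 8 fell with IMQ, at a median of 0.05, where 17.0% of all genes were called higher and 17.9% lower. The largest rises were in Lcp2, the adaptor SLP-76 (1.28 ± 0.04), Malt1 (1.11 ± 0.05) and Src (1.01 ± 0.06). The largest falls were in Lat2, a membrane adaptor (-2.41 ± 0.06), the phospholipase Plcg2 (-0.67 ± 0.05) and Pik3cd (-0.61 ± 0.04). With PA added to IMQ, where 11.6% of all genes were called higher and 9.44% lower, 3 rose and 9 fell at a median of -0.13, with the kinase Fgr (-1.60 ± 0.06) and Vav1 (-0.66 ± 0.04) lowest and Sh2b2 (1.00 ± 0.06) highest. With PA alone, where 1.49% of all genes were called, Lcp2 was called higher (0.39 ± 0.04, limma adjusted p = 0.000185) and the other 16 were not called. Without the arrays with high Il6 the Lcp2 value was 0.40 ± 0.08 and the call was lost (limma adjusted p = 0.179).

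Among the phosphatases and partners of the inhibitory members, Ptpn6 (SHP-1) rose slightly with IMQ (0.22 ± 0.04) and fell when PA was added (-0.54 ± 0.04, limma adjusted p = 1.18e-07). Its arrays read 10.6 to 10.7 with IMQ and 10.1 to 10.2 with both, below the mock arrays (10.4 to 10.5). Inpp5d, the lipid phosphatase SHIP-1, fell with IMQ (-0.81 ± 0.04) and fell further with PA added (-0.34 ± 0.04). Ptpn11 (SHP-2) rose with IMQ (0.38 ± 0.06), and Il4ra, the interleukin 4 receptor chain with which Cd300lf associates, rose as well (0.59 ± 0.05). Neither was called with PA added (-0.12 ± 0.06 and -0.06 ± 0.05). In this list 4 of 7 rose and 2 fell with IMQ (34.8% of all genes called). Dok1 was among the 4 (0.24 ± 0.08), and its call was lost without the arrays with high Il6 (0.22). With PA added 0 rose and 2 fell (21.1%), and 0 were called with PA alone (1.49%).

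**Figure D4:**
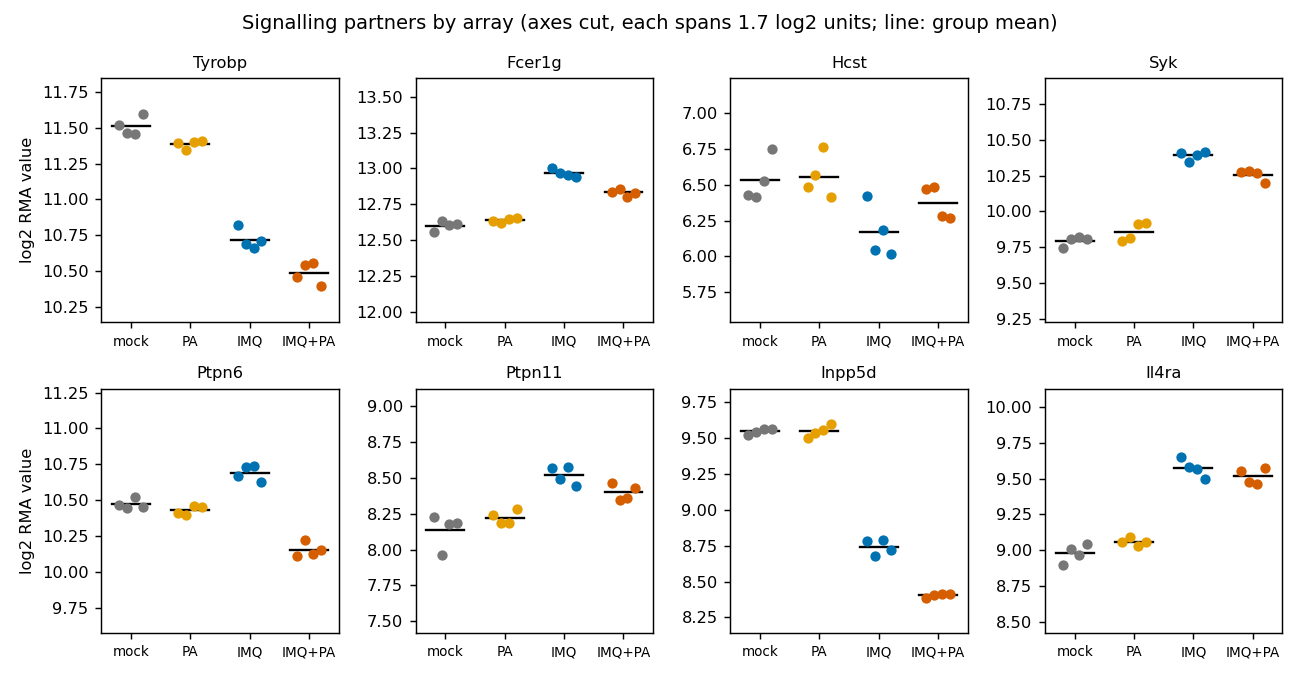
Log2 RMA values of 8 signalling partners on each array (points, 4 per group), with group means (lines) and vertical axes that each span 1.7 log2 units without starting at 0. Tyrobp and Inpp5d step down from mock to IMQ and again to IMQ with PA, and Ptpn6 is highest with IMQ and lowest with both.

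Other paired receptors did not share 1 direction. Of 20 measured receptors outside the family that were listed as activating, 8 rose and 8 fell with IMQ (median -0.04). Of 22 listed as inhibitory, 9 rose and 10 fell (median 0.04). In this comparison 17.0% of all genes were called higher and 17.9% lower. Trem1 (2.91 ± 0.12), Trem3 (2.61 ± 0.11) and Pilrb1 (2.24 ± 0.07) rose most among the activating receptors, and Trem2, a lipid receptor that pairs with DAP12, fell most (-2.65 ± 0.07). Among the inhibitory receptors Siglece rose (3.39 ± 0.11), while Klra17 (-3.42 ± 0.11), Cd200r1 (-2.24 ± 0.06) and Cd22 (-2.22 ± 0.07) fell. With PA added to IMQ, 5 activating receptors rose and 6 fell (median -0.15), and 2 inhibitory receptors rose and 13 fell (median -0.26), where 11.6% of all genes were called higher and 9.44% lower. Klra17 (0.58 ± 0.11) and Siglecg (0.55 ± 0.14) were the 2 that rose, and Siglece (-2.30 ± 0.11), Pirb (-1.71 ± 0.06) and Clec12a (-1.64 ± 0.07) fell most. With PA alone (1.49% of all genes called) Siglec1, listed as inhibitory, was called lower (-0.25 ± 0.05, limma adjusted p = 0.0264). The other 41 receptors were not called. Without the arrays with high Il6 the Siglec1 value was -0.19 ± 0.11 and the call was lost (limma adjusted p = 0.75).

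A list of 16 genes held ligands, receptors, scramblases and enzymes linked to phosphatidylserine or related lipids. Of these, 2 rose and 7 fell with IMQ (median -0.12), where 17.0% of all genes were called higher and 17.9% lower. Those that fell most were Gas6, a bridging protein to TAM receptors (-3.0 ± 0.10), Havcr2, which encodes TIM-3 (-2.10 ± 0.10), and the TAM receptor Mertk (-2.08 ± 0.06). The scramblases Xkr8 (1.09 ± 0.11) and Plscr1 (0.45 ± 0.09) rose. With PA added to IMQ, where 11.6% of all genes were called higher and 9.44% lower, 4 rose and 3 fell (median -0.02). Havcr2 rose by 2.27 ± 0.10, Mertk by 0.50 ± 0.06 and Mfge8, which bridges phosphatidylserine to integrins, by 0.48 ± 0.04, while Stab1 (-1.40 ± 0.06), Axl (-0.49 ± 0.04) and Asah1 (-0.37 ± 0.05) fell. With PA alone 1 of 16 was called (1.49% of all genes), Mfge8 (-0.21 ± 0.04, limma adjusted p = 0.0192), and this call too was lost without the arrays with high Il6 (-0.25 ± 0.08, limma adjusted p = 0.481).

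The genes most like each member were found by the root mean square difference over the 16 arrays, after each gene's own mean was subtracted, among 12570 named genes that were not dim in all groups. It is a description of these arrays, with a lower value for closer profiles. Cd300a was nearest to Acaa2 (0.24), a mitochondrial thiolase of fatty acid oxidation, then Nrp1 (0.30) and Tm4sf19 (0.31). Cd300lb was nearest to the mannose receptor Mrc1 (0.14), then Slc46a3 (0.22) and Klra17 (0.23). Cd300ld was nearest to Hadh, another enzyme of fatty acid oxidation, Kcnn4 and Klhl6 (0.11 to 0.12), and Cd300lf to Selenop, Iqgap2 and Ak8 (0.10 each). Cd300c2 was nearest to Ksr2, Pdgfc and Vwf (0.11 each), and Cd300ld3 to Cd48, Il6st and Pdk2 (0.11 each). For Cd300e they were Filip1l (0.11), Ikbke (0.12) and Jazf1 (0.12), and for Cd300lg Deptor (0.22), Cdc25b (0.23) and Cd200r4 (0.23). Cd300c was nearest to Gprin1, Neurod2 and Pcp4l1 (0.09 to 0.10), genes as flat as itself. Within the family the closest pair was Cd300c2 and Cd300lf (0.22), while the nearest member to Cd300a was Cd300ld at 0.42 and to Cd300lb was Cd300c2 at 0.68.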

How the data were processed

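Each sample (200 ng of total RNA) was turned into biotinylated DNA and read on 1 Affymetrix array, per the labels' protocols. The authors deposited log2 values. RMA and affy are named in the submitters' processing notes, without versions. No genome build is given for the array values in the sources used here. RMA subtracts background, normalises arrays by quantiles and summarises probe sets, so very dim and very bright genes are compressed. The table held 41345 probe sets on 16 arrays. The platform annotation gave 1 symbol to 23521, several to 1814 and none to 16010. Only the first kind was used, and 23328 of these were found in RefSeq by gene number. The probe set with the highest mean stood for each gene. Precision is limited by the number of arrays.

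A model with 4 group means was fitted with limma 3.58.1 in R 4.3.3 (eBayes, 12 residual and 2.96 prior degrees of freedom, two-sided, no filter on dim genes). The steps were tested on simulated data. Promoter alignments used Biopython 1.88 on RefSeq sequences (GRCm38.p6). The members, gene lists, motifs and tests were chosen with earlier results of these data known, so the lists are described by counts and medians without a test. Named were all members, 8 signalling partners, up to 3 called genes each way per list, the 3 genes most like each member, 3 neighbours on each side of the cluster and Il6. Alternatives were repeated quantile normalization, equal array medians, no dim genes, the mean of probe sets, trended robust variances, only the groups compared, the replicate number as a block, no arrays with high Il6, and each array left out. Same-numbered arrays of different groups had deviations that correlated at a median of 0.01 (4 of 24 pairs over 0.1). Differently numbered arrays had a median of -0.004 and a highest value of 0.101. The numbers were not taken as pairs in the main fit.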

Additional observations from a re-analysis of the deposited data

Results flagged for a closer look

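The change with PA differed between cells with and without IMQ, by limma's interaction term, in 3 of 9 members and 4 of 8 signalling partners, where 13.6% of all genes were called. Among the members the interaction was 0.54 for Cd300a (± 0.11, adjusted p = 0.00265), 0.76 for Cd300lb (± 0.11, adjusted p = 0.000182) and 0.35 for Cd300ld (± 0.07, adjusted p = 0.00459), all higher with IMQ present. Among the partners it was -0.17 for Fcer1g (adjusted p = 0.0421), -0.20 for Syk (adjusted p = 0.0458), -0.50 for Ptpn6 (adjusted p = 2.89e-05) and -0.34 for Inpp5d (adjusted p = 0.000735), all lower with IMQ present. Without the 5 arrays with high Il6 the calls of Cd300lb (adjusted p = 0.00522) and Ptpn6 (-0.50, adjusted p = 0.0161) stood. Those of Cd300a (0.62, adjusted p = 0.0793), Cd300ld (0.33, adjusted p = 0.175), Fcer1g (-0.15, adjusted p = 0.42), Syk (-0.13, adjusted p = 0.515) and Inpp5d (-0.29, adjusted p = 0.113) were lost.

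One array stood apart from the other 3 of its group. Ptpn11 read 7.96 in mock replicate 2, and the nearest other mock array read 8.18. It was the 1 case among 68 groups of 4 arrays examined, where chance alone gives about 5%.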

How the results depend on the processing

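For the members, 54 log2 changes (9 genes in 6 comparisons) were recomputed under up to 24 alternatives each. In 1267 of 1287 recomputations the direction of called values and the side of the threshold were kept, in 20 a call was lost, and 0 called values turned in sign. The lost calls were in 5 of the 54 values, given in the text: Cd300lf and Cd300e for PA added to IMQ, Cd300a for PA alone, and Cd300a and Cd300ld for the interaction. For PA versus mock the count of genes called was 331. It was 530 without dim genes, 737 with trended robust variances, 150 with only the groups compared, 15 without the arrays with high Il6, and 170 to 346 when single arrays were left out. Without mock replicate 1 it was 201, without mock replicate 2 it was 170, without PA replicate 3 it was 220 and without PA replicate 4 it was 192. Without the arrays with high Il6, which leaves 1 mock array taken to vary like the other groups, 0 members were called for PA alone and 1 for the interaction (Cd300lb), and the interaction called 1200 genes instead of 3015. Deviations of same-numbered arrays correlated at -0.118 to 0.173, with 4 of 24 pairs over 0.1. Those of differently numbered arrays correlated at -0.179 to 0.101. Not every same-numbered pair passed the limit of 0.1, and the numbers were not taken to pair the arrays in the main fit. Of 16 arrays, 7 were closest to an array of their own number. With the replicate number as a block, PA versus mock called 259 genes and 1 member, IMQ versus mock 7721 genes and 8 members, IMQ and PA versus IMQ 4655 genes and 5 members (Cd300lf lost its call), and the interaction 2942 genes and 3 members. For the other named genes, leaving out the arrays with high Il6 was added after seeing the data. It ended 3 of 3 calls for PA alone, 9 of 28 for the interaction, 2 of 30 for PA added to IMQ and 1 of 36 for IMQ alone (Dok1), and turned 0 signs. Every member has 1 probe set, so the mean of probe sets acts on them only through the adjustment over all genes.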
